A study of Mus musculus with 2 samples.

Results

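Wild-type corneal epithelial cells in S phase, the part of the cell cycle in which DNA is copied, were taken from single-cell RNA sequencing of mouse cornea and limbus. They are cells that held Krt12, the main keratin of the corneal epithelium, together with the basal keratins and transcripts that accumulate while DNA is copied. A cell was a member when it held Krt12 at 60 or more per 10000 of its unique molecular identifiers (UMIs, counted transcripts), Krt5, Krt14 and Krt15 together at 30 or more per 10000, at least 5 raw UMIs of Hist1h1b, Hist1h2ap and Rrm2 together, and fewer than 5 of Ube2c, Ccnb1, Plk1 and Cenpf together. Hist1h1b and Hist1h2ap encode histones made for new chromatin, Rrm2 encodes a subunit of the enzyme that makes deoxynucleotides, and the other 4 genes are read mostly before and during mitosis. The members were thus selected on their counts of these 11 genes. This rule gave 99 of the 10154 wild-type cells that passed the quality limits of 500 genes, 1000 UMIs and at most 20% mitochondrial UMIs. The members were 99 of 8848 Krt12-positive cells in that library and of 19696 kept cells in the series.

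The series holds 1 library per genotype, labelled Pax6 +/- and wt, from cornea with limbus. Pax6 encodes a transcription factor that builds the eye and is kept on in adult corneal epithelium, and the study asked what its reduced dose does to limbal epithelial stem cells. The design text names 2 mice of each genotype, and whether they were pooled is not given. The labels give neither sex, age nor strain, nor the mutant allele. With 1 library each there was no replicate of any difference, no test was possible, and every 95% interval covers counting error alone.

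The corneal epithelium renews itself from its basal layer. Stem cells sit in the limbus at the corneal rim, their daughters divide in the basal layer, and cells that leave it stop dividing, flatten and are shed from the surface. Entry into S phase is driven by cyclin E with its kinase and by the E2F factors, which switch on the genes for origin licensing, DNA polymerases and nucleotides. Histone genes are read in step with DNA synthesis, and genes for mitosis come later in the cycle.

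Members were compared with 7910 non-cycling Krt12-positive cells of the same library, which had fewer than 5 UMIs in both sums and were held to no basal keratin limit. Of these, 7361 would also pass it. Another 535 cells passed the keratin limits with the mitotic sum alone at 5 or more, here called mitotic-phase, and 234 passed with both sums. The members held a median of 16935 UMIs (1045 to 74948) and the non-cycling cells a median of 10312.5. No member barcode appeared in the other library, and 33 kept barcodes were shared by both libraries. Because the threshold is a fixed number of raw UMIs, a deeper cell passes it more easily.

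The S-phase sum of the members had quartiles of 5, 8 and 14 UMIs and a highest value of 52. It lay between 5 and 9 in 62 members, between 10 and 19 in 20, and at 20 or more in 17. The rule thus cut through a continuous range: 27 members stood exactly at the limit, while 33 cells that met the keratin and mitotic limits stood 1 UMI below it. On the mitotic side 9 members held 4 UMIs, and 16 cells were left out at 5. Rrm2 was detected in 92 members, Hist1h1b in 76 and Hist1h2ap in 44. Rrm2 outnumbered the histone UMIs in 58 members and the histones outnumbered Rrm2 in 41.

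**Figure D1:**
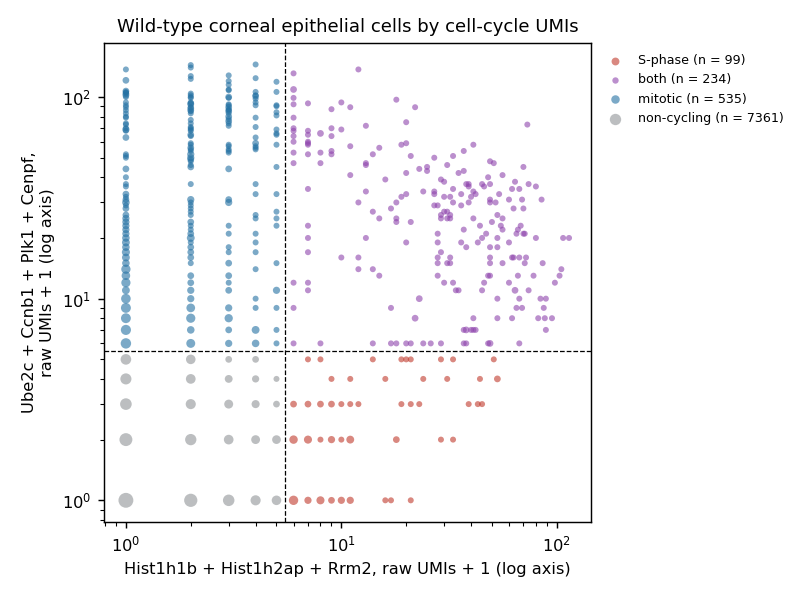
Raw UMIs of the S-phase genes (horizontal, plus 1, log axis) and of the mitotic genes (vertical, plus 1, log axis) in the gated wild-type cells, with larger points where more cells share a value. The 99 S-phase members fill the lower right field, the 234 cells with both sums the upper right, the 535 mitotic-phase cells the upper left and the 7361 gated non-cycling cells the lower left, and the dashed lines pass between 4 and 5 UMIs.

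The label was checked on genes that the rule did not use, in the same cells. Over 54 genes of origin licensing and DNA synthesis the median member held 104 UMIs, the median cell with both sums 77.5, the median mitotic-phase cell 13 and the median non-cycling cell 6. Of the 7910 non-cycling cells, 12 reached the members' median. These are raw counts, and the members were deeper. Per 10000 UMIs the licensing genes had medians of 18.1 in members and 1.17 in non-cycling cells. Those of the DNA synthesis genes were 42.3 and 4.29. In 7 members these genes summed to fewer than 10 UMIs, and 5 of those 7 had fewer than 5000 UMIs in all. The 10 members below 5000 UMIs, with 1045 to 3108 each, passed largely on Hist1h1b, of which they held 60 UMIs beside 7 of Hist1h2ap and 7 of Rrm2. A single member was also counted among reference cells for its immune markers, holding 93 of the 94 immune marker UMIs of all members, with 57448 UMIs in all.

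S-phase members made up 1.12% of Krt12-positive wild-type cells (exact Clopper-Pearson 95% interval 0.910 to 1.36), cells with both sums 2.64% (2.320 to 3.001) and mitotic-phase cells 6.05% (5.56 to 6.56). Among 884 reference cells, which carried markers of keratocytes, vessels, nerve or immune cells, 1 cell (0.113%) held the S-phase sum without the mitotic sum, and it was the member with immune markers. The reference cells had a median of 8667.5 UMIs and the Krt12-positive cells 10812.5. When every cell of at least 5000 UMIs was thinned to 5000 and the limits were applied again, 89 of 6920 cells passed (1.29%, 1.03 to 1.58). That similar share came from other cells: 20 of the 89 were members, and the other 69 had held both sums before thinning. The class is thus a range of a summed count and not a cell type.

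Shares by Krt14, a keratin of basal cells, are given as a description only. Krt14 is one of the rule's genes, and the bins hold all 8848 Krt12-positive cells, of which 8229 pass the basal keratin limit and could be members, so the rule itself favours bins rich in Krt14. Without thinning the share of S-phase cells was 0.373% (12 of 3218 cells) where no Krt14 UMI was detected and 1.81% (1.24 to 2.54) in the bin of highest Krt14, above 14.4 UMIs per 10000. These bins also differed in depth, with median totals of 7633 and 13029.5 UMIs. After thinning, at a common depth, the share was 0.590% at 0 UMIs of Krt14, 1.30% at 2 to 4 per 10000, 1.69% at 6 to 16 and 2.40% at 18 to 174, and the same limit on basal keratins bears on these bins. The thinned shares count the 89 cells that passed after thinning. Of these, 20 were members and 69 had held both sums, so they are not shares of the members.

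The share was lower where genes of superficial cells were high. Summed over a list of 28 such genes, mucins, wound and mucosal keratins and cornified envelope proteins among them, the lowest of 5 equal bins held 1.92% S-phase cells (1.33 to 2.67) and the highest bin 0.113%, or 2 of 1770 cells (0.0137 to 0.408). The thinned shares were 2.30%, 1.54%, 1.57%, 0.866% and 0.0726% in order of rising list level. They too count the 89 cells that passed after thinning, of which 20 were members. By Krt13, a keratin of mucosal and superficial epithelium, 1 of 623 cells with 10 or more UMIs per 10000 was in S phase (0.161%, 0.00406 to 0.891), beside 83 of 6732 cells with no Krt13 UMI (1.23%, 0.983 to 1.53). The Krt13-high cells were deeper, with a median of 20428 UMIs against 9604.5. These bins too hold all 8848 Krt12-positive cells without thinning. Only the 8229 past the basal keratin limit could be members, so that limit bears on these shares, which are given as a description.

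**Figure D2:**
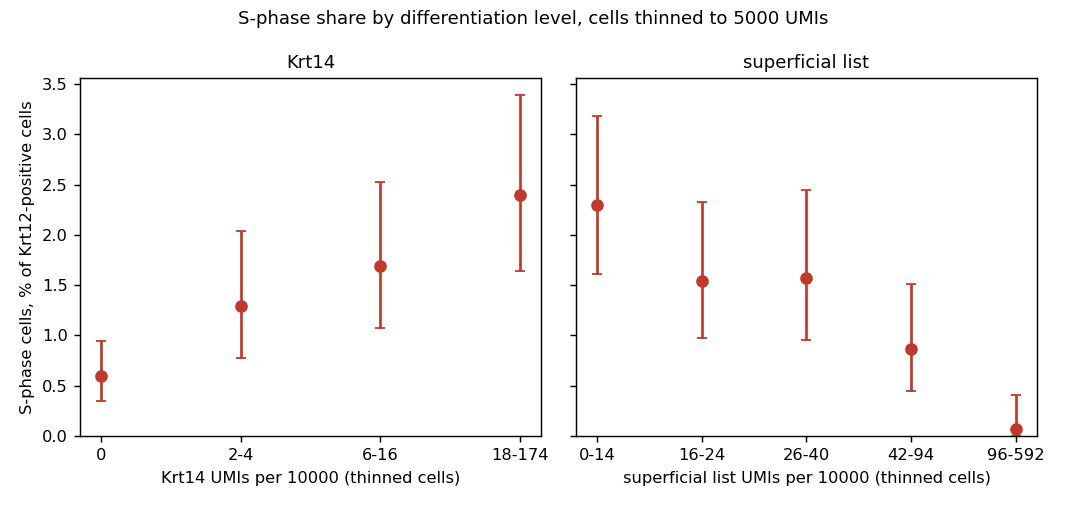
Share of Krt12-positive wild-type cells past the S-phase rule (vertical, percent, with exact 95% intervals) after thinning each cell to 5000 UMIs, by Krt14 UMIs per 10000 (left) and by the summed superficial list per 10000 (right). The share is 2.40% in the bin richest in Krt14 and 0.590% where none was counted, and 0.0726% in the bin richest in superficial transcripts. Krt14 is one of the genes that chose the members, and cells below the basal keratin limit are in the bins of both panels. Those cells could not be members, so both panels are a description. Of the 89 thinned cells past the rule, 20 were members and 69 had held both sums before thinning.

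Summed over each class and expressed as CPM (a gene's UMIs over all UMIs of the class without mitochondrially encoded genes, on the usual CPM scale), 6655 genes reached 20 CPM in members or in non-cycling cells. In S-phase members 458 of them (6.88%) stood higher by 2-fold or more, and 223 (3.35%) stood lower by as much. The split was 383 higher and 299 lower with edgeR's TMM factors, and 395 and 294 with DESeq2's size factors. Of the 458, 139 belonged to a cell-cycle list or were replication histones and 319 did not. The lists are not complete, and the 319 include kinetochore and mitosis genes such as Spc24, Cenph and Kif15. At least 8-fold higher were 129 genes, 73 of them on those lists, and at least 8-fold lower were 11. The choice of cells by S-phase transcripts sets much of this contrast, so these values describe the members and do not test the label. A gene that passed 20 CPM only through its S-phase level had to be called higher where its non-cycling level was below 10 CPM. Likewise a gene that passed only through its non-cycling level had to be called lower where its S-phase level was below 10 CPM. Areg, Btc, Ccng2, Irf7, Ifit3, Krt4 and Krt19 were among the latter. Counts over the genes that passed thus hold forced calls in both directions, and the cell-cycle genes below the limit are given with their lists. The shares of 6.88% and 3.35% over all genes stand beside every list count of this contrast below.

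Origin licensing genes were all higher. Of 20 listed, 18 passed the limit and 18 were at least 2-fold higher (median log2 ratio 3.44; all genes 0.00), and the 2 below it, Gins3 and Orc1, stood at 15.7 and 12.5 CPM in S-phase members and at 1.68 and 1.61 CPM in non-cycling cells. Mcm2 to Mcm7 encode the ring-shaped helicase that is loaded at origins. Mcm3 stood at 174 CPM in members and 12.6 CPM in non-cycling cells (13.8-fold, 12.1 to 15.6), and had a UMI in 82 of 99 members. Mcm5 stood at 74.3 CPM in S-phase members against 4.48 CPM, and Mcm6 at 121 CPM against 16.98 CPM. Cdc6, which loads that ring, stood at 34.1 CPM in members and 2.12 CPM in non-cycling cells, and Cdt1, its partner, at 46.6 and 4.09 CPM. Cdc45 and Mcm10, which turn the ring into a moving helicase, were 19.6-fold and 25.7-fold higher in S-phase members. Gmnn, the inhibitor that blocks a further round of loading, stood at 159.9 CPM against 16.5 CPM. Orc2 had the lowest ratio of those passing, at 60.2 CPM in members and 29.1 CPM in non-cycling cells.

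Promoters of these genes are shown because E2F sites are known from the promoters of licensing genes. The sequences are the 160 bases before the annotated start, 5′ to 3′ on the gene's strand, from RefSeq on GRCm38.p6, and capitals mark E2F matches (TTTCCCGC, TTTCGCGC, TTTGCCGC or TTTGGCGC on either strand, overlapping matches joined).
Mcm5, chr8:75109349-75109508, plus strand: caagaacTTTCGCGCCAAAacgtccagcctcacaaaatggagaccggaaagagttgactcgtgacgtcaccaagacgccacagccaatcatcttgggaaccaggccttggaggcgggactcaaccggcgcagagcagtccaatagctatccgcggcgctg
Cdc6, chr11:98907991-98908150, plus strand: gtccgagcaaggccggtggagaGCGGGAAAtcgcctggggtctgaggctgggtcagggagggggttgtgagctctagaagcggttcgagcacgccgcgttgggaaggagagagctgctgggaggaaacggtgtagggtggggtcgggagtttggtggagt
Mcm6, chr1:128359706-128359865, minus strand: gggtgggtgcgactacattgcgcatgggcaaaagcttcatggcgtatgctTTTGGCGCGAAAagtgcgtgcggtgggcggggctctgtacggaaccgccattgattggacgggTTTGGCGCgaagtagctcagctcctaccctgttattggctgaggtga
Mcm5 holds 2 overlapping matches, Cdc6 holds 1 and Mcm6 holds 3, of which 2 overlap. The gene positions used here start Cdc6 further upstream, at 98907801, so its printed bases lie within the gene by those positions. Within 250 bases before to 50 after the start, 8 of the 15 licensing genes with a promoter in the table held such a match (53.3%), as did 10 of 28 DNA synthesis genes (35.7%), 10 of 60 replication histones (16.7%), 1 of 19 nucleotide genes, 3 of 35 mitotic genes and 0 of 17 superficial genes, beside 704 of 27025 genes in all (2.605%). The CHR element (TTTGAA, either strand), known from mitotic promoters, was in 24 of 35 mitotic genes (68.6%), 5 of 15 licensing genes and 20.2% of all genes. The CCAAT box (CCAAT, either strand) was in 51 of 60 replication histones (85%), 26 of 35 mitotic genes (74.3%), 11 of 15 licensing genes (73.3%) and 41.1% of all genes. A match describes these letters and not binding, and neither short motif is rare.

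Genes of DNA synthesis were also higher. Of 34 listed, 29 passed and 29 were at least 2-fold higher in members (median log2 ratio 3.10), and the other 5 stood between 9.21 and 18.97 CPM in S-phase members and between 0.851 and 2.98 CPM in non-cycling cells. Pclaf (chromosome 9, 65890237 to 65903266, plus strand), whose protein rides on the sliding clamp, had the highest ratio of all genes past 50 CPM. It stood at 391 CPM in S-phase members and 6.34 CPM in non-cycling cells (61.6-fold, 55.2 to 68.8). After thinning, Pclaf was detected in 66.3% of members and 2.32% of non-cycling cells, beside 1.38% of reference cells. Per cell its level ran between 0 and 34.8 UMIs per 10000 with a median of 3.92 in S-phase members, while the median of non-cycling cells was 0. Pcna, the clamp itself, stood at 421 CPM in members and 62.3 CPM in non-cycling cells, a smaller ratio (6.76-fold) over a higher resting level. It was detected in 85.4% of thinned members and in 24.4% of non-cycling cells, below the 29.2% of reference cells. Clspn, which couples the fork to its checkpoint kinase, was 35.4-fold higher at 97.6 against 2.76 CPM. Uhrf1 and Dnmt1, which copy DNA methylation to the new strand, stood at 208 against 8.86 CPM and at 189.7 against 46.2 CPM. Lig1, which seals nicks in the lagging strand, was 14.8-fold higher, and Rfc1, a clamp loader subunit, 2.19-fold.

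The enzymes that supply nucleotides were higher to a lesser degree. Of 20 listed, 18 passed and 17 were at least 2-fold higher in S-phase members (median log2 ratio 1.57), Nme1 being the exception at 149 CPM in members and 89.04 CPM in non-cycling cells. Below the limit stood Cad at 8.13 against 3.35 CPM and Shmt2 at 14.6 against 9.83 CPM. Among genes of thymidine supply, Tk1 was 23.6-fold, Tyms 12.6-fold and Dut 8.61-fold higher. Rrm1, the partner of the rule gene Rrm2, stood at 164 CPM in S-phase members against 24.3 CPM. Purine synthesis genes stood closer to 2-fold, with Gart at 47.2 against 21.7 CPM and Paics at 324 against 139 CPM.

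Replication histones were few in number past the limit and steep in ratio. Of 65 genes, which leave out Hist1h1b and Hist1h2ap of the rule, 8 passed, of which 6 were higher and 1 lower (median log2 ratio 2.73). Hist1h2ae (chromosome 13, 23570517 to 23571220, minus strand), an H2A gene, stood at 73.2 CPM in members and 1.72 CPM in non-cycling cells (42.5-fold, 33.5 to 53.7) and was detected in 35 of 99 members. The linker histone genes Hist1h1a, Hist1h1d and Hist1h1e stood at 66.1, 47.7 and 141 CPM in S-phase members, against 2.46, 2.82 and 32.5 CPM. Hist1h4d was 4.65-fold higher and Hist2h2ac 9.54-fold. Hist1h1c did not differ by size, at 48.2 against 48.9 CPM, and Hist1h2bc was lower at 34.1 against 76.1 CPM. Most other genes of the family held under 20 CPM in both classes. The family's genes are near-identical copies, and how reads shared between copies were counted is not given in the sources used here, so values of single copies are uncertain. The list's median log2 ratio ran between 1.77 with a sum of at least 3 UMIs and 5.32 when the rule was applied to thinned cells, where 7 and 20 genes passed.

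Genes that process, carry and place histones were higher too. Of 14, 11 passed and 9 were at least 2-fold higher (median log2 ratio 1.95). Below the limit stood Lsm10, Lsm11 and Zfp473, at 17.3, 7.05 and 0.542 CPM in members and 16.8, 3.59 and 0.266 CPM in non-cycling cells. Slbp, which binds the stem-loop of histone messages, stood at 221 CPM in S-phase members against 46.1 CPM, the chaperone gene Nasp at 288 against 71.8 CPM, and the chromatin assembly genes Chaf1a and Chaf1b at 50.95 against 4.52 CPM and 31.4 against 1.86 CPM. Asf1b was 26.9-fold higher, whereas its paralog Asf1a was 1.58-fold. Among 24 chromatin genes 10 were higher and 0 lower (median log2 ratio 0.84), led by the remodeler gene Hells at 140.4 CPM in members and 12.1 CPM in non-cycling cells. Hmgb2 stood at 687 against 165 CPM and Ezh2, a Polycomb methyltransferase gene, at 220.1 against 69.4 CPM. Replacement histones made through the whole cycle were split: of 9 past the limit 4 were higher, H2afz at 1753 against 831 CPM among them, while H3f3a stood at 1905 against 1857 CPM.

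Genes of the replication stress response and repair were higher in 19 of 22 that passed, and 0 were lower (median log2 ratio 2.84). The 3 below the limit, Fanci, Fancd2 and Tonsl, stood at 14.1, 18.4 and 10.3 CPM in members and 0.947, 1.36 and 1.76 CPM in non-cycling cells. Rad51ap1, an accessory factor of recombination, stood at 55.3 CPM in S-phase members and 1.32 CPM in non-cycling cells (41.9-fold, 31.9 to 54.9). Exo1, a nuclease gene, Brca1, a recombination gene, and Chek1, the fork checkpoint kinase gene, were 26.7-fold, 23.1-fold and 17.7-fold higher. The apical kinase genes stood lower in this order, with Atm 2.77-fold and Atr 1.39-fold. Of 11 cohesin genes past the limit, 2 were higher: Esco2, which acetylates cohesin as sister strands emerge, at 59.1 CPM in members and 1.06 CPM in non-cycling cells (55.5-fold), and Pds5b at 65.04 against 31.2 CPM. Cdca5, below the limit, stood at 9.76 against 0.447 CPM. The core ring genes Smc1a, Smc3 and Rad21 were 1.62-fold, 1.63-fold and 1.48-fold higher, below the size limit.

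Regulators of entry into S phase differed by kind. Of 19 past the limit, 12 were at least 2-fold higher in members and 0 lower (median log2 ratio 1.61). E2f2, Mybl2 and Skp2 did not reach it, at 11.9, 17.9 and 16.8 CPM in members and 0.447, 1.16 and 2.26 CPM in non-cycling cells. Ccne2 (chromosome 4, 11191351 to 11204779, plus strand), a cyclin E gene, stood at 69.4 CPM in S-phase members, 25.5 CPM in cells with both sums, 2.16 CPM in mitotic-phase cells and 3.22 CPM in non-cycling cells. Ccne1 stood at 43.9 CPM in members and 8.18 CPM in non-cycling cells, and the activator gene E2f1 at 49.9 against 2.47 CPM. E2f8, a repressor of the same family, was 18.9-fold higher, and E2f7 2.69-fold. The D-type cyclins, which act earlier, stood near their non-cycling levels: Ccnd1 at 983 against 688 CPM and Ccnd2 at 237 against 181 CPM. Myc stood at 39.03 against 35.5 CPM.

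Among 14 cell cycle inhibitor and p53 pathway genes, 2 were higher and 2 lower in members (median log2 ratio -0.39). Over all genes 6.88% were higher and 3.35% lower. Trp53 itself stood at 167 CPM in S-phase members and 72.2 CPM in non-cycling cells (2.32-fold, 2.06 to 2.60), and Cdkn2c, an inhibitor of the cyclin D kinases, at 32.5 against 15.6 CPM. The p53 target genes Cdkn1a and Mdm2 stood at 474 against 829 CPM and 89.4 against 128 CPM, ratios of 0.572 and 0.699. Ccng2, a cyclin of resting cells, was 4.66-fold lower at 4.88 against 22.8 CPM, and Cdkn2b 2.57-fold lower. Both passed only through their non-cycling level, and the limit set the call of Ccng2.

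Mitotic genes other than those of the rule were already present in members. Of 38 listed, 28 passed and 25 were at least 2-fold higher than in non-cycling cells (median log2 ratio 3.55). The 10 below the limit stood between 3.79 (Aurka) and 18.97 CPM (Hmmr) in members and between 0.862 (Nuf2) and 5.86 CPM (Cenpa) in non-cycling cells. The upper limit on 4 mitotic genes lies in the rule, and any mitotic gene that varies with them is held down in members. Top2a, which untangles sister strands, stood at 228 CPM in S-phase members, 1038 CPM in cells with both sums, 452 CPM in mitotic-phase cells and 13.3 CPM in non-cycling cells. Mki67, the proliferation marker, stood at 136, 669, 475 and 11.1 CPM in that order of classes. The mitotic kinase gene Aurka was near its floor in members, at 3.79 CPM against 51.6 CPM in mitotic-phase cells and 1.36 CPM in non-cycling cells. Arl6ip1 and Pttg1, often listed with mitosis, stood at 276 against 261 CPM and 93.8 against 98.6 CPM and did not follow the list.

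Against the 535 mitotic-phase cells, 277 of 6671 genes (4.15%) stood 2-fold or more higher in S-phase members, and 157 (2.35%) stood lower by that size. Licensing genes were higher in 17 of 18, DNA synthesis genes in 26 of 29 and nucleotide genes in 12 of 18, while 27 of 38 mitotic genes were lower. The rule chose these classes by opposite limits on the S-phase and mitotic sums, so it sets much of these directions. The counts are given as a description. The licensing gene that was lower was Dbf4, the activator of the Cdc7 kinase, at 26.02 CPM in members and 60.7 CPM in mitotic-phase cells. Mcm3 stood at 174 CPM in members, 76.1 CPM in cells with both sums and 9.18 CPM in mitotic-phase cells, below the 12.6 CPM of non-cycling cells in that last class. Of 15 superficial genes 2 were lower and 0 higher: Muc4 at 40.7 CPM in members and 89.1 CPM in mitotic-phase cells, and Spink5 at 9.76 against 21.1 CPM. Spink5 passed only through its mitotic-phase level, so the 20 CPM limit set its call.

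The 234 cells with both sums held the highest level of replication histones. Hist1h2ae stood at 73.2 CPM in members, 234 CPM in cells with both sums and 4.97 CPM in mitotic-phase cells, and Hist1h1a at 66.1, 254 and 4.54 CPM. Summed over the list, replication histones stood at 684 CPM in members and 2118 CPM in cells with both sums, whereas licensing genes stood at 1508 and 948 CPM. The limit on the mitotic sum keeps these cells out of the members.

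**Figure D3:**
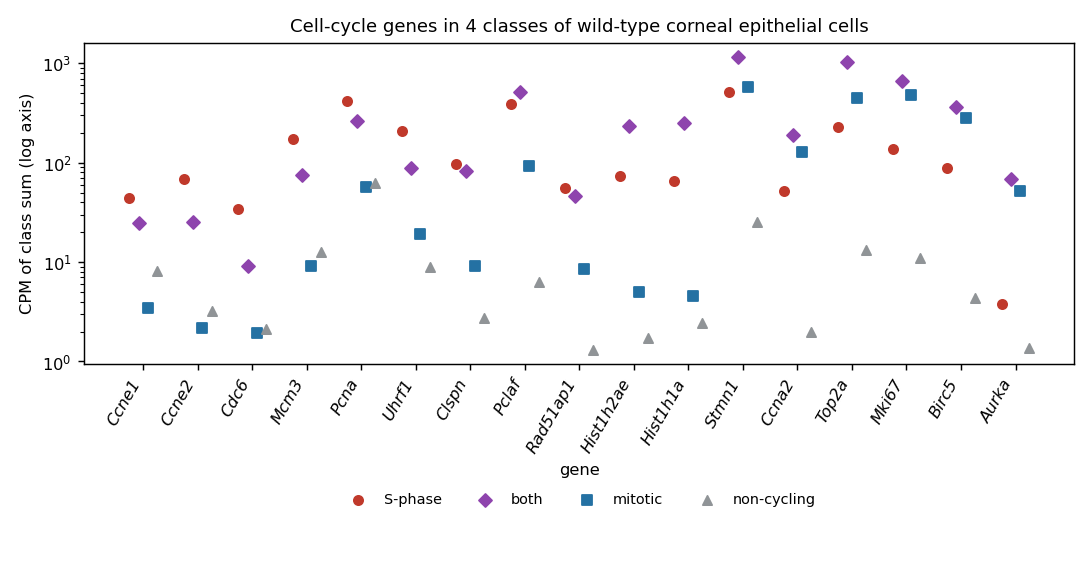
Class CPM (vertical, log axis) of 17 cell-cycle genes in S-phase members, cells with both sums, mitotic-phase cells and non-cycling cells of the wild-type library. Ccne2, Cdc6 and Mcm3 are highest in S-phase members, the histone genes Hist1h2ae and Hist1h1a in cells with both sums, and Aurka is nearly absent from members at 3.79 CPM.

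The 12 highest ratios outside the cell-cycle and histone lists are given as values, since no list was fixed for them. All but Stmn1 stood below 10 CPM in non-cycling cells and so passed through their S-phase level. Of genes whose products act at the kinetochore, Spc24, Cenph, Kntc1, Knl1, Cenpp and Cenpk were between 16.3-fold and 25.96-fold higher in members. Cenph stood at 81.3 CPM in members and 21.5 CPM in mitotic-phase cells, while Knl1 stood at 64.5 and 142 CPM, so the kinetochore genes did not share 1 order across the classes. Stmn1, a tubulin-binding protein gene, stood at 518 CPM in S-phase members, 581 CPM in mitotic-phase cells and 25.1 CPM in non-cycling cells. Dtl, the ubiquitin ligase subunit that degrades Cdt1 during replication, was 14.5-fold higher at 87.8 against 6.06 CPM. Slfn9, of the Schlafen family, stood at 138 CPM in members, 8.53 CPM in mitotic-phase cells and 8.71 CPM in non-cycling cells. Kif15, Anln and Ncapg2, which act in mitosis, completed the 12 at 28.8-fold, 13.9-fold and 12.8-fold.

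The members held both corneal and basal keratins, as the rule requires, and these 4 keratins are given as a description. Krt12 ran between 76.1 and 414 UMIs per 10000 in S-phase members with a median of 194, and had a median of 255 in non-cycling cells. Krt14 had a median of 6.57 per 10000 in members, with 87 of 99 detected, and of 1.42 in non-cycling cells. Its class level was 1239.6 CPM in members and 765 CPM in non-cycling cells. Krt15, a keratin of limbal and basal progenitors, ran the other way at 654 CPM in members and 1937 CPM in non-cycling cells, with a median of 0 in both classes and a highest cell of 65.0 and 441 per 10000. Krt5 stood at 5563 against 7028 CPM.

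Basal adhesion genes were at similar levels in both classes. Of 20 basal epithelial genes, 1 was higher and 1 lower (median log2 ratio 0.10, 0.01 with TMM factors). Trp63, the master regulator of stratified epithelium, stood at 175 CPM in S-phase members and 206 CPM in non-cycling cells, Itga6 at 692 against 729.9 CPM and Itgb4 at 189 against 133 CPM. The gene higher was Krt17 at 27.1 against 9.45 CPM, found in 11 members, and the gene lower was Ifitm1 at 61.8 against 366 CPM. Of 15 hemidesmosome and basement membrane genes 0 passed 2-fold (median log2 ratio -0.05, 0.31 against depth-matched cells), with Col17a1 at 1471 against 1305 CPM.

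Genes of superficial cells were lower as a group. Of 28 listed, 18 passed, 13 were at least 2-fold lower in members and 0 higher (median log2 ratio -1.40, against 3.35% of all genes lower). Muc4 (chromosome 16, 32735886 to 32782391, plus strand), a membrane mucin of the tear film surface, stood at 40.7 CPM in S-phase members and 453 CPM in non-cycling cells (11.1-fold lower). Its highest cell held 6.79 UMIs per 10000 among members and 149.8 among non-cycling cells. Krt6b, a keratin of wounded and suprabasal epithelium, stood at 257 against 1675 CPM and Krt6a at 675 against 2085 CPM. Krt13 stood at 124 against 607 CPM and was detected in 7.87% of thinned members, 20.3% of thinned non-cycling cells and 5.66% of reference cells. Its share in members was thus near that of cells that should lack it. The claudin genes Cldn4 and Cldn7 were 1.87-fold and 1.44-fold lower, below the size limit, and Ecm1 stood at 23.8 against 16.1 CPM.

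The 12 lowest ratios outside the cell-cycle lists are given as values, likewise. All but Asprv1, Hopx and Muc4 stood below 20 CPM in members and so passed through their non-cycling level. Psca (chromosome 15, 74714839 to 74717069, plus strand), a GPI-anchored surface protein gene, had the lowest, at 7.59 CPM in S-phase members and 469 CPM in non-cycling cells (61.7-fold lower). It was detected in 13.1% of members and 12.8% of non-cycling cells without thinning, and in 5.62% and 9.82% after it, beside 2.29% of reference cells. The highest member held 17.4 UMIs per 10000 and the highest non-cycling cell 485. Asprv1, a skin protease gene, stood at 136 against 1457 CPM, and Hopx, a homeodomain gene of differentiating epithelium, at 60.2 against 637 CPM. Cells with both sums held Asprv1 and Hopx at 161 and 118 CPM, and mitotic-phase cells at 195 and 153 CPM. Psca stood at 11.4 and 39.0 CPM in the same classes, so these low levels were not particular to the members. Arg1, which breaks down arginine, was 9.17-fold lower, and Areg, an EGF receptor ligand gene, 7.18-fold. Ifit1bl1 was 55.4-fold lower on 3 UMIs in members (interval of the ratio 0.00372 to 0.0527). Cysrt1, Eps8, Nccrp1, H60c and Slc5a8, with Muc4, completed the 12, between 6.82-fold and 10.6-fold lower apart from Muc4.

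Corneal differentiation genes were lower or within 2-fold. Of 19, 4 were lower and 0 higher (median log2 ratio -0.50), against 3.35% of all genes lower. Aldh3a1 and Tkt, abundant corneal enzymes, stood at 12580.5 against 10860.3 CPM and 6952 against 5588 CPM. Gsto1, a glutathione transferase gene, stood at 2565 CPM in S-phase members and 6833 CPM in non-cycling cells (2.66-fold lower), and the water channel gene Aqp5 at 3002 against 5077 CPM. The regulators of barrier differentiation Grhl3, Grhl1 and Elf3 were 4.33-fold, 2.45-fold and 2.26-fold lower. Pax6 stood at 370.2 CPM in S-phase members and 370.2 CPM in non-cycling cells (ratio 0.926 to 1.08), and Klf4 at 802 against 994 CPM. Of 11 conjunctival genes 4 passed, and all 4 were lower in members (median log2 ratio -2.18), against 3.35% of all genes. They were Krt13, Cldn3 at 35.2 against 114 CPM, Krt4 at 7.05 against 29.7 CPM and Krt19 with 0 UMIs. Krt19 was at least 12.3-fold lower, at a floor of 3 UMIs over the class. Krt4 and Krt19 passed only through their non-cycling level, so the 20 CPM limit set their calls. Below the limit, Krt18 stood at 2.71 against 1.37 CPM and Agr2 at 1.08 against 2.40 CPM. Krt4 and Krt13 are also on the superficial list.

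Cell junction genes were mostly lower by less than 2-fold. Of 22, 3 were lower and 0 higher (median log2 ratio -0.58), Dsc2 and Dsg1a of them also superficial, and 21 of the 22 had a ratio below 1. Over all genes 3.35% were lower. Dsp, the desmosome plaque protein gene, stood at 1558 CPM in members and 2422 CPM in non-cycling cells, Dsg3 at 458 against 872 CPM and Dsg1a at 133 against 302 CPM. The exception was the gap junction gene Gja1 at 310.0 against 279 CPM.

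Limbal markers gave no common direction. Of 12 that passed, 1 was higher and 2 lower (median log2 ratio 0.19). Gpha2 stood at 87.8 CPM in members, 36.9 CPM in non-cycling cells and 304 CPM in reference cells. After thinning it was detected in 16.9% of members and 13.7% of non-cycling cells, against 39.9% of reference cells, so no expression or difference is read from it. Its log2 ratio was 1.25 and turned to -0.47 when the rule was applied to thinned cells. The 2 lower were Tcf4, at 13.6 against 32.02 CPM, and Krt19. Mt1 and Mt2, metallothionein genes, stood at 1068 against 861 CPM and 976 against 733 CPM.

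Of 12 EGF receptor pathway genes, 4 were lower and 0 higher (median log2 ratio -0.73), against 3.35% of all genes lower. The ligand genes among the 4, Areg, Btc and Epgn, passed only through their non-cycling level. The 20 CPM limit set the calls of Areg and Btc. Areg stood at 9.76 CPM in S-phase members and 70.01 CPM in non-cycling cells, Btc at 6.50 against 22.7 CPM and Epgn at 18.4 against 37.3 CPM, with the feedback inhibitor gene Errfi1 at 74.3 against 159 CPM. The receptor gene Egfr stood at 303 against 394 CPM. Of 9 Notch genes 1 was lower, Notch2 at 19.5 against 45.9 CPM, while Notch1 stood at 87.3 against 84.9 CPM. Of 11 Wnt genes 0 were called, with Wnt4 at 397 against 361 CPM and Wnt10a at 65.6 against 44.5 CPM.

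Biosynthetic genes stood higher for ribosomes and lower for sterols. Of 19 ribosome biogenesis genes 4 were higher and 0 lower (median log2 ratio 0.68): Nop56 at 124 against 50.1 CPM, Npm1 at 541 against 241 CPM, Dkc1 and Gar1. All 24 ribosomal protein genes had a ratio above 1 and 0 reached 2-fold (median log2 ratio 0.46). Of 19 lipid synthesis genes 4 were lower and 0 higher (median log2 ratio -0.68), among them Sqle, which commits squalene to sterols, at 48.8 against 167 CPM, and Insig1, a sensor of sterol level, at 15.7 against 74.3 CPM. Insig1 passed only through its non-cycling level. Of 14 glycolysis and 22 oxidative phosphorylation genes 0 were called (median log2 ratios 0.33 and 0.20). The mitochondrial chaperone gene Hspd1 was 2.17-fold higher and the small heat shock gene Cryab 3.60-fold lower among 11 heat shock genes. Of 15 antioxidant genes, Sod1 was 2.27-fold higher and Gsto1 was lower as given.

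**Figure D4:**
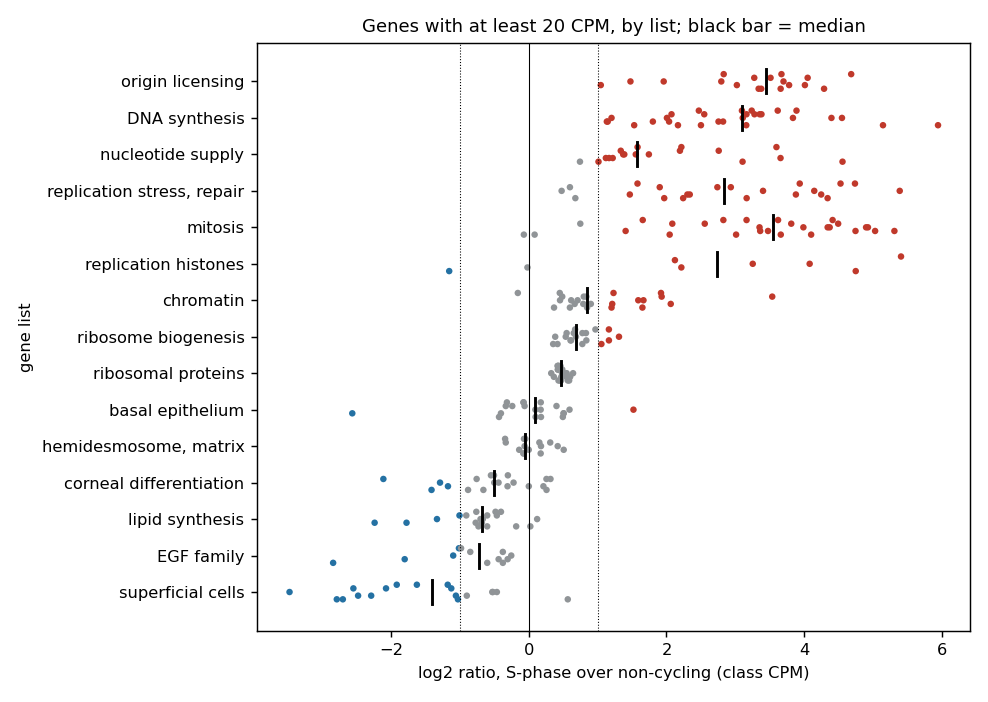
Log2 ratio of class CPM, S-phase members over non-cycling cells, for genes of 15 lists with at least 20 CPM in either class; red points are at least 2-fold higher, blue at least 2-fold lower, and black bars are list medians. Licensing, DNA synthesis and mitosis lie far to the right with medians of 3.44, 3.10 and 3.55, ribosomal proteins cluster at 0.46, and the superficial list lies lowest at -1.40.

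Members were both deeper and richer in Krt14 than the cells they were set against, so the ratios were taken again against non-cycling cells weighted to the members' depth and Krt14 level. Against those cells 437 genes were higher and 173 lower. DNA synthesis genes kept 29 of 29 higher with a median log2 ratio of 2.58, and licensing genes 18 of 18 with 2.91. Superficial genes were lower in 10 of 18, with a median of -1.30. Psca stood at 7.59 CPM in members and 354 CPM in matched cells (46.7-fold lower), Muc4 at 40.7 against 369 CPM and Krt13 at 124 against 554 CPM. Krt14 stood at 1239.6 CPM in members and 1245.7 CPM in matched cells, as the weighting sets it, and Krt15 at 654 against 2038 CPM. With depth alone matched, 14 of 18 superficial genes were lower with a median of -1.74, and the DNA synthesis median was 3.19. Muc4 stood at 40.7 CPM in members and 663 CPM in depth-matched cells, and Krt13 at 124 against 922 CPM.

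**Figure D5:**
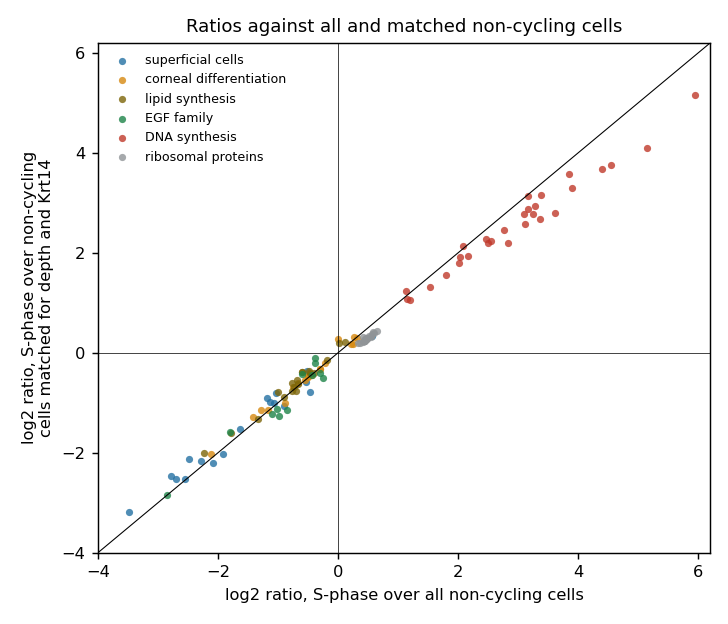
Log2 ratio of S-phase members over all non-cycling cells (horizontal) and over non-cycling cells matched for depth and Krt14 (vertical) for the genes of 6 lists, with the line of equality. DNA synthesis genes lie below the line, with medians of 3.10 and 2.58, and superficial genes lie near it, with medians of -1.40 and -1.30.

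Within the members, the 41 cells led by histone UMIs and the 58 led by Rrm2 are described by their class levels. This split uses the counts of the rule genes, so its histone values follow from it, and no difference in other genes is supported by it. Mki67 stood at 209 CPM in histone-led and 91.6 CPM in Rrm2-led members, Top2a at 334 and 163 CPM, Birc5 at 143 and 54.1 CPM and Ccna2, the cyclin of S phase and its end, at 75.9 and 36.6 CPM. In the other direction E2f1 stood at 28.6 CPM in histone-led and 62.8 CPM in Rrm2-led members, Cdc6 at 20.1 and 42.7 CPM and Mcm3 at 130.3 and 201 CPM. Pclaf, Clspn and Slbp had ratios of 1.22, 0.91 and 0.98, histone-led over Rrm2-led. Ccne2, Tyms, Cdk1 and Mcm5 had ratios of 0.92, 0.92, 1.18 and 0.80. Counting intervals of these ratios, and of those of Clspn and Slbp, included 1, but they do not test a split made on rule genes. Krt14, itself a rule gene, stood at 682 CPM in histone-led and 1579 CPM in Rrm2-led members. Krt13 stood at 48.7 and 170.0 CPM, on 34 and 195 UMIs from 16 members. The 2 sets had median depths of 14540 and 17719.5 UMIs, and the part of depth in these values was not tested.

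The library labelled Pax6 +/- held few cells of this kind. Only 518 of its 9542 kept cells were Krt12-positive, and 49 of them were S-phase cells (9.46%, 7.08 to 12.3), 19 had both sums (3.67%) and 3 were mitotic-phase (0.579%). The wild-type shares were 1.12%, 2.64% and 6.05%. Thinned to 5000 UMIs, S-phase cells were 5.37% (3.47 to 7.88) of Pax6 +/- and 1.29% (1.03 to 1.58) of wild-type Krt12-positive cells. Most of those wild-type thinned cells were not members, as given above. Median depths before thinning were 17011 and 10812.5 UMIs. Among all cells past the basal keratin limit, whatever their Krt12, S-phase cells numbered 388 of 6796 (5.71%) in the Pax6 +/- library and 101 of 8552 (1.18%) in the wild type, and mitotic-phase cells 142 (2.09%) and 546 (6.38%). Cells past the limits thus leaned to S phase in the Pax6 +/- library and to mitosis in the wild type, with 1 library each. Krt14 had a median of 26.5 per 10000 in Pax6 +/- and 6.57 in wild-type S-phase cells, and of 21.5 and 1.42 in non-cycling cells.

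The targeted gene, Pax6, stood at 736 CPM in Pax6 +/- and 370.2 CPM in wild-type S-phase cells, so it did not mark the heterozygous library by a lower count, which does not separate mutant from normal transcript. In Pax6 +/- S-phase cells 530 of 6925 genes (7.65%) stood higher by 2-fold or more, and 347 (5.01%) stood lower by as much. Replication genes mostly stood within 2-fold: 1 of 19 licensing and 1 of 30 DNA synthesis genes were higher and 0 of either lower, with Pclaf at 416 CPM in Pax6 +/- and 391 CPM in wild-type cells, and Mcm3 at 199.9 and 174 CPM. Of 8 replication histones 7 were lower, Hist1h2ae at 17.6 CPM in Pax6 +/- and 73.2 CPM in wild-type cells. Per 10000 UMIs, the summed histone list had medians of 1.04 in Pax6 +/- and 3.36 in wild-type S-phase cells. Its medians in non-cycling cells were 0.572 and 1.70, so the lower level was not particular to S-phase cells. Of 17 interferon and MHC class I genes 14 were higher, B2m at 1031 and 146 CPM and Isg15 at 415 and 33.6 CPM, and 6 of 10 neural-type adhesion genes were lower, Piezo2 at 5.85 and 224 CPM and Lsamp at 39.98 and 647 CPM. Genotype, library and mice cannot be told apart in these values.

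Within the Pax6 +/- library, S-phase cells were set against 444 non-cycling Krt12-positive cells, and 389 of 6804 genes (5.72%) were higher and 181 (2.66%) lower. Licensing genes were higher in 16 of 17 and DNA synthesis genes in 30 of 30, with median log2 ratios of 1.64 and 1.80, beside 3.44 and 3.10 in the wild type. The contrast cells are called non-cycling by the rule's limits alone. Per 10000 UMIs their licensing genes had a median of 3.35 in the Pax6 +/- library and 1.17 in the wild type. Mcm3 stood at 199.9 CPM in Pax6 +/- S-phase and 64.2 CPM in Pax6 +/- non-cycling cells, and at 174 and 12.6 CPM in the wild-type classes. Superficial genes were lower in 9 of 18 (median log2 ratio -0.89). The difference between the libraries' ratios was not tested.

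Markers of other cells were low in the members. Summed, keratocyte markers stood at 29.3 CPM in S-phase members, 166 CPM in non-cycling cells and 56135 CPM in reference cells, with Ptgds at 0 in members. Endothelial markers stood at 3.25, 3.24 and 344 CPM with 3 of 5 at 0 in members, mural markers at 111, 125 and 553 CPM with Rgs5 and Myh11 at 0 and nearly all from Notch3, and Schwann markers at 1.63, 2.80 and 107 CPM. Immune markers stood at 51.0 CPM in members, 3.09 CPM in non-cycling cells and 253 CPM in reference cells, and rested on the 1 member named above. Without that member 460 genes were higher and 224 lower.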

How the data were processed

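Single-cell RNA sequencing of cornea with limbus gave 1 library per genotype. The deposited values are raw UMI counts per gene and barcode, filtered matrices from Cell Ranger 8.0.0 per the file headers, on GRCm38 per the submitters' processing notes. The Pax6 +/- library held 10574 barcodes and 131567589 UMIs and the wt library 11354 barcodes and 124540296 UMIs, over 32285 features.

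Counts were summed per class and scaled to CPM without mitochondrially encoded genes. A gene was called at 2-fold with at least 20 CPM in either class, leaving out the 11 rule genes. Ratio intervals are exact conditional binomial and shares Clopper-Pearson, at 95%. UMIs remove PCR copies, and both cover counting error only. Reference cells held at least 3 markers and 10 UMIs of another cell type. No doublet caller was run, and leaving out the 5% deepest cells was an alternative. Named genes were the 12 highest and 12 lowest ratios outside cell-cycle lists at 50 CPM or more, the 10 highest of all, and the highest, lowest or most abundant of each list. Other listed genes were named for their role, after their values were seen. Members, lists and tests were chosen with earlier results of these data known. Code was tested on simulated data. Python 3.11.15, numpy 2.4.6, scipy 1.17.1, pandas 2.3.3, R 4.3.3, edgeR 4.0.16 and DESeq2 1.42.0 (the last 2 for scaling factors only) were used. Promoters came from RefSeq (GRCm38.p6), matched by symbol or unique synonym. Gene positions are on GRCm38.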

Additional observations from a re-analysis of the deposited data

How the results depend on the processing

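No paired analysis was possible because each genotype has 1 library and no test was made. The S-phase share of 1.12% was 2.11% with a sum of at least 3 UMIs, 0.418% with at least 10 and 3.76% with any mitotic sum, a setting chosen after seeing the data. The 458 genes higher became 794 at 5 CPM and 210 at 50 CPM, and the 223 lower became 447 and 118. The lower count was also 144 with a sum of at least 3, 350 against depth-matched cells, 429 with the mean of per-cell fractions and 342 without the 5% deepest cells. The cause was not tested. In other settings both counts stayed within 1.5 times. TMM moved the median log2 ratio of all genes by -0.10 and depth matching by 0.12. Of 595 list medians over 17 settings, 578 stayed, 17 moved and 0 reversed. Of 799 values of named genes, 212 left their counting interval and 1 reversed: Gpha2, at -0.47 when the rule was applied to thinned cells. The members' 1844916 UMIs set the depth, at which 20 CPM is 36.9 UMIs.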

Other observations

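Genes of the immediate early response, which tissue handling is known to raise, were at similar levels in both classes: of 19 past 20 CPM, 0 were at least 2-fold higher or lower in S-phase members (median log2 ratio -0.16). Fos stood at 2687 CPM in S-phase members and 2644 CPM in non-cycling cells, and Jun at 1690.0 against 1804 CPM. Of 11 circadian clock genes 0 were called (median log2 ratio -0.19).

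Interferon and MHC class I genes included 6 of 17 that were lower in S-phase members and 0 that were higher (median log2 ratio -0.21). Of all genes 3.35% were lower. Among the 6, Irf7, Ifit1 and Ifit3 stood below 20 CPM in members and passed through their non-cycling level. Isg15, a ubiquitin-like protein gene induced by interferon, stood at 33.6 CPM in members and 95.4 CPM in non-cycling cells, and Ifitm1, which restricts virus entry, at 61.8 against 366 CPM. Without thinning, Isg15 had a UMI in 31.3% of members and 27.9% of non-cycling cells, and Ifitm1 in 23.2% and 21.6%. Of 10 neural-type adhesion genes and 7 eye regulator genes 0 were called, with median log2 ratios of -0.15 and -0.06 that became 0.37 and 0.19 against depth-matched cells. Melanocyte markers summed to 7.05 CPM in members, 4.18 CPM in non-cycling cells and 1.24 CPM in reference cells.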
